A study of Mus musculus with 2 samples.

Results

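The integrated stress response was followed through 10 of its genes: Atf4, Atf5, Ddit3, Trib3, Chac1, Asns, Psat1, Sesn2, Ppp1r15a and Xbp1. They were chosen by gene symbol. GENCODE M21 gives these symbols to 11 of the 55487 Ensembl genes in the count table, because Ddit3 carries 2 overlapping gene records. The second Ddit3 record had 0 counts in both libraries, and its sum with the main record is used here. RNA sequencing was done on 2 libraries of mouse Langerhans cells, dendritic cells resident in the epidermis, which were isolated from ears by their CD207 and MHC II staining. Both libraries form a single group: genotype HTR2A-/- (no serotonin 2A receptor), given imiquimod, which activates Toll-like receptor 7, together with a-CD40L for 24 hours after the sort. No wild-type or untreated library was analysed here, so each value describes stimulated knockout cells and no value is an effect of genotype or treatment. Strain, age and the part of Htr2a that was removed were not given in the sources used here.

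Library 1 held 69925160 counts and library 2 held 42264685, so counting error was small except for rare transcripts. The labels do not say whether the libraries came from separate mice. Xist was at 3.90 and 1384 CPM (counts scaled to 1000000 per library), and the Y-linked Ddx3y at 149 and 0.0946 CPM. By these genes library 1 was male and library 2 female, so differences between the libraries cannot be told apart from those of sex. Htr2a had 77 and 117 counts, at percentiles 44.5 and 33.4 of olfactory receptor genes per kb of exon, which served as a background. The defining marker of the sort, Cd207, stood at 1125 and 1052 CPM, and 14 of 14 Langerhans cell markers were above background. Genes of keratinocytes were also abundant and unequal: their 14 markers summed to 4845 CPM in library 1 and 16455 CPM in library 2, with 13 of 14 above background in both, and none at 0 counts. The 14 Langerhans cell markers summed to 23113 and 12197 CPM. In such bulk samples, fewer cells of a type and less RNA per cell cannot be told apart.

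Cells enter the integrated stress response when kinases that sense amino acid shortage, unfolded protein, double-stranded RNA or heme shortage phosphorylate the translation factor eIF2. General translation then slows, while mRNAs with upstream reading frames, such as that of the transcription factor ATF4, are translated more. ATF4 and its partner CHOP, encoded by Ddit3, switch on genes for amino acid synthesis and transport, and also genes that end the response, such as Ppp1r15a. Xbp1 belongs to a neighbouring pathway, in which the sensor IRE1 splices its mRNA under stress of the endoplasmic reticulum. In dendritic cells these pathways are known for their link to antigen presentation and cytokine output.

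Transcripts of all 10 genes were detected, over a wide range of levels. Per kb of exon, Ppp1r15a and Atf4 were the most abundant, followed by Xbp1, Sesn2 and Ddit3. Psat1, Chac1, Atf5 and Trib3 were lower in both libraries, and Asns was low in library 1 (4.74 CPM per kb) but close to Ddit3 in library 2 (19.1 against 21.8). Levels are given as CPM, and between genes as CPM per kb of exon. The highest and lowest of the 10 differed 177-fold per kb in library 1 and 29.5-fold in library 2. A gene was called above background where it exceeded the 95th percentile of 1135 olfactory receptor genes (0.761 and 1.58 CPM per kb) in both libraries. By this rule 10 of 10 genes were above background, against 47.3% of 21974 protein-coding genes. The median of the 10 was 12.2 CPM per kb in library 1 and 20.5 in library 2, beside medians of 1.10 and 1.60 over all protein-coding genes. Ranks 1 to 6 were held by Ppp1r15a, Atf4, Xbp1, Sesn2, Ddit3 and Asns in both libraries, and the order below them differed.

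**Figure D1:**
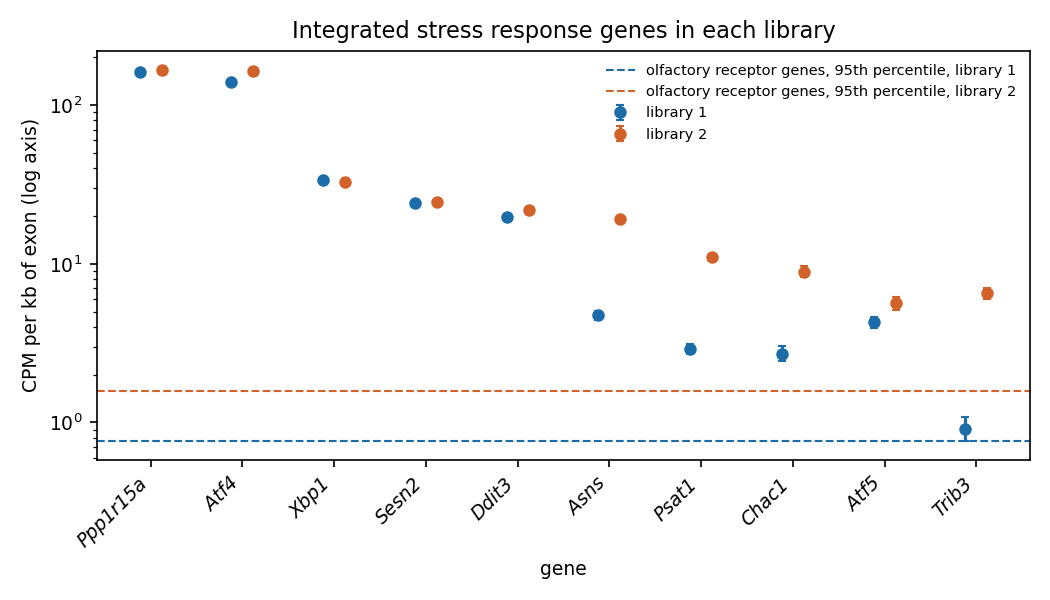
Level of each gene in CPM per kb of exon (log axis) in library 1 and library 2, with exact 95% Poisson intervals that cover counting error only. Dashed lines mark the 95th percentile of olfactory receptor genes in each library. The points of Ppp1r15a, Atf4, Xbp1, Sesn2, Ddit3 and Atf5 lie close together in the 2 libraries, while those of Asns, Psat1, Chac1 and Trib3 lie higher in library 2.

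Atf4, the central transcription factor of the response (ENSMUSG00000042406, GRCm38 chromosome 15, 80255184 to 80257541, plus strand, protein-coding), was counted 23168 times in library 1 and 16317 times in library 2. Its level was 331 CPM in library 1, with an exact 95% Poisson interval of 327 to 336, while library 2 gave 386 CPM (380.2 to 392), with a mean of 359 ± 38.7 CPM (SD, n = 2). Per kb, Atf4 stood at percentile 99.3 of protein-coding genes in both libraries. Its level was well above that of most genes, and the libraries differed by a factor of 1.17 in CPM.

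Atf5, a related transcription factor that is also controlled at translation (ENSMUSG00000038539, chromosome 7, 44812256 to 44816658, minus strand), was far scarcer. It had 596 and 474 counts, or 8.52 CPM (7.85 to 9.24) and 11.2 CPM (10.2 to 12.3), 9.87 ± 1.90 CPM (SD, n = 2). Atf4 exceeded Atf5 per kb 32.9 times in library 1 and 29.1 times in library 2, with overlapping 95% intervals (30.3 to 35.7 and 26.6 to 31.9). The annotated span of Atf5 overlaps Nup62 and Il4i1 on the opposite strand, by 571 and 272 bp. Il4i1 was at 70.4 and 6.39 CPM, and since no source used here says whether strand was used in counting, reads of the overlap cannot be told apart.

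Ddit3 encodes CHOP, a factor that acts with ATF4 and that promotes cell death when stress persists (ENSMUSG00000025408, chromosome 10, 127290774 to 127296288, plus strand). It had 2351 and 1576 counts, or 33.6 CPM (32.28 to 35.01) and 37.3 CPM (35.5 to 39.2), 35.5 ± 2.59 CPM (SD, n = 2). Relative to Atf4, Ddit3 was steady: per kb it stood at 14.0% of Atf4 in library 1 (13.4 to 14.6) and 13.3% in library 2 (12.6 to 14.0). Its span overlaps Mars on the opposite strand by 68 bp.

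Ppp1r15a, which encodes GADD34, the phosphatase subunit that directs dephosphorylation of eIF2 and so ends the response, was the most abundant of the 10 (ENSMUSG00000040435, chromosome 7, 45522916 to 45526268, minus strand). It had 33052 and 20577 counts, or 473 CPM (468 to 478) and 487 CPM (480.2 to 494), 479.8 ± 10.0 CPM (SD, n = 2). Its constitutive counterpart Ppp1r15b was at 132 and 157 CPM, and Ppp1r15a exceeded it per kb 6.81 and 5.90 times. Per kb, Ppp1r15a was 1.15 times as abundant as Atf4 in library 1 (1.13 to 1.16) and 1.01 times in library 2 (0.992 to 1.03), so the 2 genes were not distinguishable by counting error in library 2.

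Trib3 encodes a pseudokinase that ATF4 and CHOP induce and that restrains them (ENSMUSG00000032715, chromosome 2, 152337422 to 152344032, minus strand). It was the lowest of the 10 in library 1, with 135 counts, or 1.93 CPM (1.62 to 2.28), and had 586 counts, or 13.9 CPM (12.8 to 15.0), in library 2. The mean was 7.90 ± 8.44 CPM (SD, n = 2), so the SD exceeded the mean. In library 1 Trib3 stood at 1.19 times the background limit and at percentile 96.9 of olfactory receptor genes, and with the 99th percentile as the limit it was no longer above background. Of its paralogs, Trib1 was at 110.4 and 166 CPM, and exceeded Trib3 per kb 19.4 times in library 1 and 4.07 times in library 2.

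Sesn2, a sestrin that ATF4 induces and that restrains the growth kinase mTORC1 (ENSMUSG00000028893, chromosome 4, 132492032 to 132510501, minus strand), was the most even of the 10 by CPM. It had 5834 and 3575 counts, or 83.4 CPM (81.3 to 85.6) and 84.6 CPM (81.8 to 87.4), 84.0 ± 0.816 CPM (SD, n = 2). Sesn2 was the leading sestrin: per kb it exceeded Sesn1 5.39 and 8.18 times, and Sesn3 10.0 and 23.6 times. Sesn1 stood at 17.7 and 11.9 CPM, and Sesn3 was within background in library 2. Gm12981, a noncoding gene annotated on the same strand within Sesn2, was at 4.55 and 7.64 CPM.

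Xbp1, the target of IRE1 (ENSMUSG00000020484, chromosome 11, 5520659 to 5525893, plus strand), had 7646 and 4512 counts. These were 109 CPM (107 to 112) and 107 CPM (104 to 109.9), with a mean of 108 ± 1.83 CPM (SD, n = 2), with overlapping intervals. IRE1 removes a short intron from the Xbp1 mRNA outside the spliceosome, and only the spliced mRNA encodes the potent factor XBP1s. The intron is shown because a count per gene does not separate the 2 forms, so nothing here measures splicing. In the GENCODE M21 transcript it is 26 bases long and lies in coding exon sequence at chr11:5524279-5524304 (GRCm38, plus strand). It is printed 5′ to 3′ in capitals with 6 coding bases on each side:
Xbp1 intron: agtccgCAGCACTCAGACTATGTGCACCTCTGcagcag
It was found as a pair of CNGCAG motifs in the coding sequence, of which 2 pairs had this spacing. Removal of this intron lengthens the reading frame from 267 to 371 codons, whereas removal at the other pair shortens it to 73.

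Asns, asparagine synthetase (ENSMUSG00000029752, chromosome 6, 7675169 to 7693254, minus strand), was counted 906 times in library 1 and 2212 times in the less deeply sequenced library 2. These were 13.0 CPM (12.1 to 13.8) and 52.3 CPM (50.2 to 54.6), with a mean of 32.6 ± 27.8 CPM (SD, n = 2). Psat1, which encodes phosphoserine aminotransferase, the middle step of serine synthesis (ENSMUSG00000024640, chromosome 19, 15904678 to 15947337, minus strand), had 866 and 1978 counts. These were 12.4 CPM (11.6 to 13.2) and 46.8 CPM (44.8 to 48.9), with a mean of 29.6 ± 24.3 CPM (SD, n = 2). Both genes were clearly higher in library 2, and by similar factors: per kb Asns exceeded Psat1 1.63 times in library 1 (1.48 to 1.79) and 1.74 times in library 2 (1.64 to 1.85). Chac1, an enzyme that breaks down glutathione (ENSMUSG00000027313, chromosome 2, 119351229 to 119354381, plus strand), had 311 and 618 counts. These were 4.45 CPM (3.97 to 4.97) and 14.6 CPM (13.5 to 15.8), with a mean of 9.53 ± 7.19 CPM (SD, n = 2). Its paralog Chac2 was at 1.87 and 3.15 CPM.

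Trib3, Asns, Psat1 and Chac1 thus formed the uneven part of the set. Trib3, Asns and Chac1 carried in their promoter window the core of the C/EBP-ATF response element, and Psat1 did not. The sites are shown because ATF4 is known to act through this element. This grouping was made after the values were seen, and a link between the element and the unevenness was not tested. The core TGATGNAA was searched on both strands of RefSeq windows on GRCm38.p6 that reach from 250 bases before to 50 bases after each gene's start, and all 10 genes had a window. It was found in the windows of 3 of the 10 genes and of 4.51% of 27025 genes, or 3.97% of 32851 windows. The 10 were chosen as genes of this response, so these shares are not a test. Each site is printed on the gene's strand, 5′ to 3′, with the core in capitals, reading in reverse as TTNCATCA for Chac1 and Trib3:
Asns: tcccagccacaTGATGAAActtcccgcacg
Chac1: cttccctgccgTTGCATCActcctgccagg
Trib3: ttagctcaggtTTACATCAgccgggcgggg
The Asns site is at chr6:7693214-7693243 (minus strand), with its core at positions -23 to -16 from the RefSeq start (negative before it). The Chac1 site is at chr2:119351038-119351067 (plus strand), with its core at -193 to -186. That of Trib3 is at chr2:152344028-152344057 (minus strand), with its core at positions 15 to 22 after the RefSeq start, which places it before the start of the GENCODE gene given above. The cAMP response element TGACGTCA, which related factors bind, was found in 1 of the 10 genes, Ppp1r15a, and in 2.03% of all genes. It does not overlap any core above and is shown with the element in capitals, at chr7:45526262-45526291 (minus strand):
Ppp1r15a: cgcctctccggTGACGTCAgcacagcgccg
The endoplasmic reticulum stress element, CCAAT and CCACG with 9 bases between them, searched on both strands, was in none of the 10 windows and in 0.137% of all genes. A match is a description of the sequence and was not tested as a binding site, and a window without a match says only that these letters are not in it.

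Upstream start codons, through which several of these mRNAs are known to be controlled, were counted in 1 GENCODE transcript per gene (that with the longest coding sequence). At least 1 upstream ATG was present in 8 of the 10 genes, against 50.5% of 21528 protein-coding genes. Ppp1r15a had 7, Atf4 had 3, and Atf5 and Ddit3 had 2 each, while Chac1 and Trib3 had 0. An upstream frame that runs out of frame past the coding start was found in 4 of 10 (Atf4, Atf5, Ppp1r15a and Psat1), against 16.8% of genes. These are properties of the annotation, and translation was not measured.

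Differences between the 2 libraries divided the 10 genes. By CPM, 4 genes were at least 2-fold higher in library 2: Trib3 7.18 times, Asns 4.04 times, Psat1 3.78 times and Chac1 3.29 times. The other 6 lay between 0.976 and 1.32 times. The libraries are replicates of a single group, so this comparison measures how far they differ and not a response. Across 30351 genes with at least 1 CPM in either library, counts were scaled by TMM and compared with edgeR's exact binomial test, in which sampling noise is the only error, so that it compares the libraries and not conditions. It called 80.3% of all genes at a Benjamini-Hochberg adjusted p of 0.05, 44.2% higher and 36.1% lower in library 2, and 24.5% at least 2-fold higher. All 10 genes passed the filter, and 9 of 10 were called: 4 higher, each at least 2-fold, and 5 lower. A share of 9 in 10 called is near that of all genes. With total counts 8 of 10 were called, all of them higher, where 85.1% of all genes were called, 64.6% higher and 20.5% lower, and with DESeq2 size factors 10 of 10, where 79.8% were. The median log2 ratio of the 10 was -0.19, beside 0.15 over all genes.

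The scale decided the direction of 5 genes and the size of all. TMM lowers each log2 ratio by 0.50 against total counts, and moves the median of all genes from 0.65 to 0.15. With TMM, log2 ratios (library 2 over library 1) were 2.33 for Trib3, 1.51 for Asns, 1.42 for Psat1 and 1.21 for Chac1, and with total counts they were 2.83, 2.01, 1.92 and 1.71. The ratio of Atf4 was -0.28 with TMM and 0.22 with total counts, and Ppp1r15a (-0.46 and 0.043), Sesn2 (-0.48 and 0.020), Ddit3 (-0.35 and 0.15) and Atf5 (-0.10 and 0.40) changed sign likewise. Xbp1 was at -0.54 and -0.035. By edgeR's exact binomial test with TMM the adjusted p was 5.03e-172 for Asns, 1.95e-139 for Psat1, 3.38e-83 for Trib3 and 3.23e-35 for Chac1, and 0.275 for Atf5. Where the edgeR exact test assumed a dispersion of 0.04 between replicates, 4 of 10 genes were called, against 33.6% of all genes (21.6% higher and 12% lower), and these were the same 4. Their adjusted p in that edgeR test was 2.75e-06 for Trib3, 0.00207 for Asns, 0.00419 for Psat1 and 0.0173 for Chac1, and it lay between 0.321 and 0.883 for the other 6. The dispersion of 0.04 was assumed, and the spread of these libraries was far larger: with both taken as replicates of 1 group, edgeR's common dispersion was 0.406, a biological coefficient of variation of 0.637. At 0.406, a setting added after the data were seen, edgeR's exact test called 0 of 10 genes, against 0.056% of all genes, and 0 of 10 had an unadjusted p under 0.05, the lowest being 0.104 for Trib3. At the libraries' own spread, which itself contains these differences, none of the 10 was thus distinguishable.

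**Figure D2:**
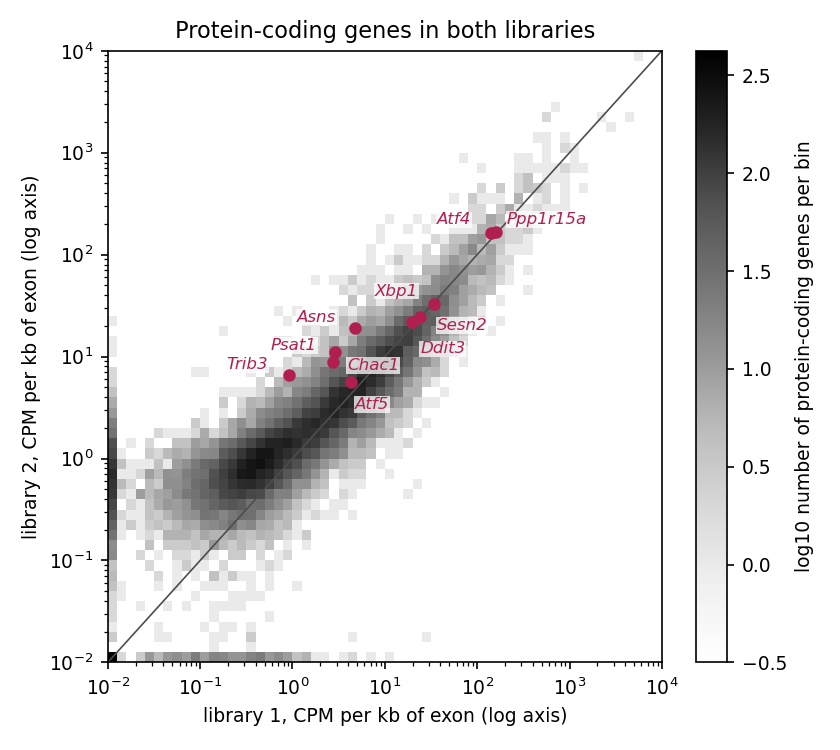
Level of protein-coding genes in library 1 (x axis) and library 2 (y axis), both in CPM per kb of exon on log axes, as the number of genes per bin in grey, with the 10 genes in red and a line of equal CPM. Genes below the axes' lower end are drawn at the edge. Trib3, Psat1, Chac1 and Asns lie above the line and the other 6 lie on or near it.

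A ratio to another gene within a library does not depend on the scale. Per kb and relative to Atf4, Asns stood at 3.37% in library 1 (95% interval 3.15 to 3.60) and 11.7% in library 2 (11.2 to 12.2). Psat1 stood at 2.07% (1.93 to 2.22) and 6.72% (6.41 to 7.04), and Chac1 at 1.93% (1.72 to 2.16) and 5.46% (5.03 to 5.91). Trib3 stood at 0.647% (0.542 to 0.766) and 3.99% (3.66 to 4.33). Intervals of the 2 libraries did not overlap for these 4 genes. Those of Ppp1r15a, Sesn2 and Xbp1 did not overlap either, with the lower values in library 2. The share of all genes with such intervals was not computed, so the lack of overlap does not set these genes apart. With TMM, edgeR's exact binomial test, in which sampling noise is also the only error, called 80.3% of all genes. The ratio to Atf4 was thus 6.16 times higher in library 2 for Trib3 (5.11 to 7.44), 3.47 times for Asns (3.20 to 3.75), 3.24 times for Psat1 (2.99 to 3.52) and 2.82 times for Chac1 (2.46 to 3.24). For Ddit3 it was 0.952 times (0.890 to 1.02) and for Atf5 1.13 times (0.999 to 1.28), with intervals that include 1. It was slightly lower for Ppp1r15a (0.884, 0.861 to 0.908), Sesn2 (0.870, 0.831 to 0.911) and Xbp1 (0.838, 0.804 to 0.874). These intervals use a normal approximation on the log scale and cover counting error only. Unequal ratios show that the genes differed unequally between the libraries, not which of them was constant.

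**Figure D3:**
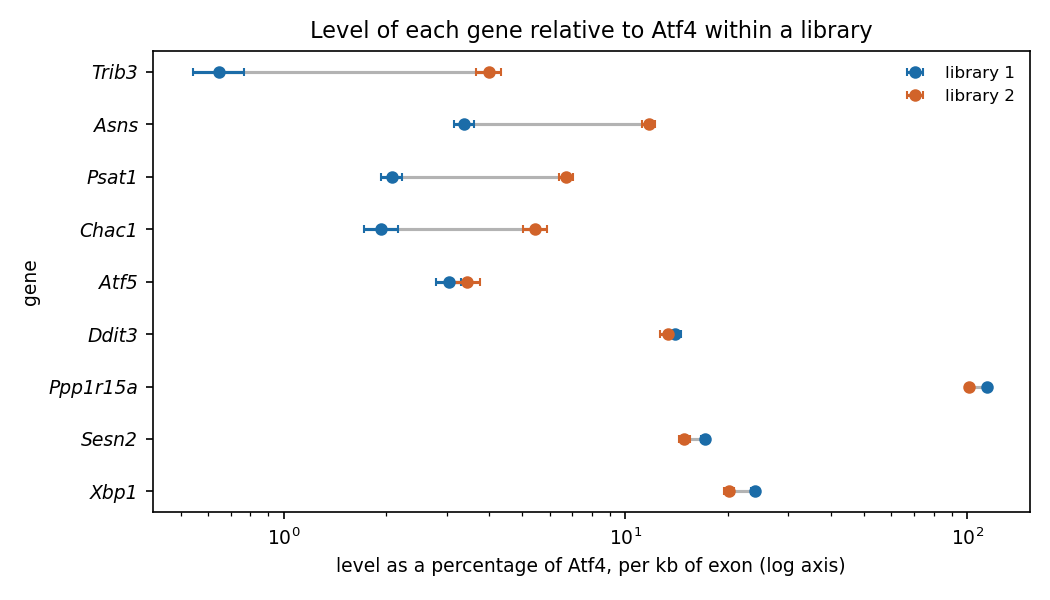
Level of each gene as a percentage of Atf4 per kb of exon (log axis), in library 1 and library 2, with 95% intervals from counting error. Trib3, Asns, Psat1 and Chac1 are well apart between the libraries, for example 3.37% and 11.7% for Asns, while Atf5 and Ddit3 are close.

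Keratinocyte markers were higher in the same library as these 4 genes, while the summed markers of Langerhans, mature dendritic, T cells and fibroblasts were lower there. The summed level of the 14 keratinocyte markers was 3.40 times higher in library 2, and Krt14 was at 1315 and 4806 CPM. By edgeR's exact binomial test 13 of 14 were called higher and 1 lower with either scale. Of all genes 44.2% were called higher and 36.1% lower with TMM, and 64.6% and 20.5% with total counts. The summed Langerhans cell markers were 1.89 times higher in library 1, and those of 14 mature dendritic cell genes 3.47 times (3757 and 1082 CPM; 11 of 14 above background in both libraries). The 8 T cell markers summed to 220.2 and 132 CPM (6 of 8 above background), and the 6 fibroblast markers to 114 and 42.7 CPM (0 of 6). Of 8 B and plasma cell markers 2 were above background, Sdc1 and Prdm1, which other cells also express, and their sum was 153 and 443 CPM, with Jchain at 0 counts in library 1. The background itself was higher in library 2, with median olfactory receptor levels of 0.221 and 0.645 CPM per kb. After its subtraction, the TMM log2 ratios were 2.59 for Trib3, 1.53 for Asns, 1.44 for Psat1 and 1.23 for Chac1. The part of keratinocyte RNA in the difference was not tested.

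Other genes of the pathway were read from 12 lists with 101 genes outside the 10, of which 91 were above background. The eIF2 kinase genes were all expressed: Eif2ak1, the heme-regulated kinase, at 64.8 and 36.2 CPM, Eif2ak3, which encodes PERK, at 47.8 and 44.0 CPM, and Eif2ak4, which encodes the amino acid sensor GCN2, at 39.3 and 30.8 CPM. All 4, Eif2ak2 included, were called lower in library 2 with TMM and with total counts (36.1% and 20.5% of all genes), and Eif2ak1 had a TMM log2 ratio of -1.34. Of 8 subunits of eIF2 and its exchange factor eIF2B, 8 were above background, with 4 called higher and 3 lower with TMM (44.2% and 36.1% of all genes), but 7 higher and 0 lower with total counts (64.6% and 20.5% of all genes). Eif2s2 was the most uneven, at 82.5 and 177 CPM, and Eif2s1, whose product is phosphorylated in the response, was at 76.0 and 80.8 CPM. The catalytic phosphatase genes Ppp1ca (80.8 and 63.0 CPM) and Ppp1cc (65.7 and 50.9 CPM) were lower in library 2 with both scales. The catalytic gene Ppp1cb was higher than both by CPM (154 and 179), but per kb of exon it was below Ppp1ca in both libraries. Ppp1cb was lower in library 2 with TMM (log2 ratio -0.28) but higher with total counts (0.22).

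Genes of the factors that pair with ATF4 were abundant. Atf3, itself a stress-induced factor, was at 914 and 864 CPM, and per kb it exceeded Atf4 3.02 times in library 1 and 2.45 times in library 2. Cebpb was at 279 and 180.5 CPM and Nfe2l2, which encodes NRF2, at 221 and 126 CPM. Of 6 such genes 5 were called lower in library 2 with TMM (36.1% of all genes) and 4 with total counts (20.5%), and Cebpg was higher with both (48.5 and 78.0 CPM). Among paralogs of the 10 genes Trib2 was at 17.0 and 10.95 CPM. Trib3 was thus below Trib2 per kb in library 1 (0.231 times, 0.192 to 0.277) and above it in library 2 (2.58 times, 2.28 to 2.92).

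The enzymes next to Psat1 in serine synthesis differed as Psat1 did. Phgdh, the first enzyme, was at 11.5 and 37.0 CPM, and Psph, the last, at 4.75 and 15.7 CPM, or 3.23 and 3.30 times higher in library 2. In library 1 Psph stood at only 1.44 times the background limit. Its 1.10 CPM per kb there was below the 99th percentile of olfactory receptor genes (1.42). The ratio of Phgdh to Psph per kb was 4.21 in library 1 (3.70 to 4.80) and 4.11 in library 2 (3.75 to 4.51), with overlapping intervals, and that of Psat1 to Phgdh was 0.631 (0.573 to 0.696) and 0.739 (0.691 to 0.790). Shmt2, which passes serine carbon into the mitochondrial folate cycle, was at 21.2 and 72.6 CPM, whereas Mthfd2, the next enzyme of that cycle, was at 38.5 and 47.8 CPM. Of the list of 9, 6 were called higher and 2 lower with TMM (44.2% and 36.1% of all genes), and 8 and 1 with total counts (64.6% and 20.5% of all genes). Gpt2, an alanine transaminase, had the highest TMM log2 ratio (1.45), but was within background in library 1. Got1, an aspartate transaminase, was lower in library 2 with both scales (123 and 83.9 CPM). Phgdh and Psph, like Ppp1cb and Trib2 above and Slc6a9, Vldlr and Adm2 below, were named after their values were seen.

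Amino acid transporter genes were led by 3 abundant members. Slc38a2, a sodium-coupled transporter of small neutral amino acids, was at 434 and 383 CPM, Slc3a2, the shared heavy chain of exchangers, at 342 and 338 CPM, and its partner Slc7a5 at 167 and 149 CPM. With TMM 2 of 9 were called higher and 6 lower in library 2 (44.2% and 36.1% of all genes), and with total counts 3 and 4 (64.6% and 20.5% of all genes). The 2 higher with TMM were Slc6a9, a glycine transporter, at 8.35 and 16.8 CPM, and Slc7a3, which was within background, at 1.52 and 3.34 CPM. Slc1a5, a glutamine transporter, had the lowest TMM log2 ratio (-1.26). Of 12 aminoacyl-tRNA synthetase genes, 12 were above background, with 8 called higher and 2 lower with TMM (44.2% and 36.1% of all genes), and 11 and 1 with total counts (64.6% and 20.5% of all genes). Cars, for cysteine, differed most (38.0 and 105 CPM), Gars was at 79.8 and 116 CPM, Nars at 98.0 and 144 CPM, and Eprs at 296 and 288 CPM. The synthetase list had a median TMM log2 ratio of 0.18, close to the 0.15 of all genes.

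Among 10 other known targets of ATF4 or CHOP, 6 were above background. Ddit4, an inhibitor of mTORC1, was at 39.2 and 38.2 CPM, Ero1l, an oxidase of the endoplasmic reticulum, at 48.8 and 64.4 CPM, and Eif4ebp1, a translation repressor, at 18.0 and 18.6 CPM. Tnfrsf10b, a death receptor gene, was at 5.58 and 22.5 CPM, with a TMM log2 ratio of 1.51. Fgf21, a secreted hormone of this response, had 0 counts in library 1, with an exact 95% Poisson interval up to 0.0528 CPM. In library 2 it had 47 counts (1.11 CPM), within background. With TMM 4 of the 10 were called higher and 4 lower in library 2 (44.2% and 36.1% of all genes), and with total counts 7 and 0 (64.6% and 20.5% of all genes). Of the 4 higher with TMM, 3 were not above background in both libraries (Fgf21, Vldlr and Adm2), which leaves Tnfrsf10b. In library 1 Tnfrsf10b stood at only 1.34 times the background limit. Its 1.02 CPM per kb there was below the 99th percentile of olfactory receptor genes (1.42).

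**Figure D4:**
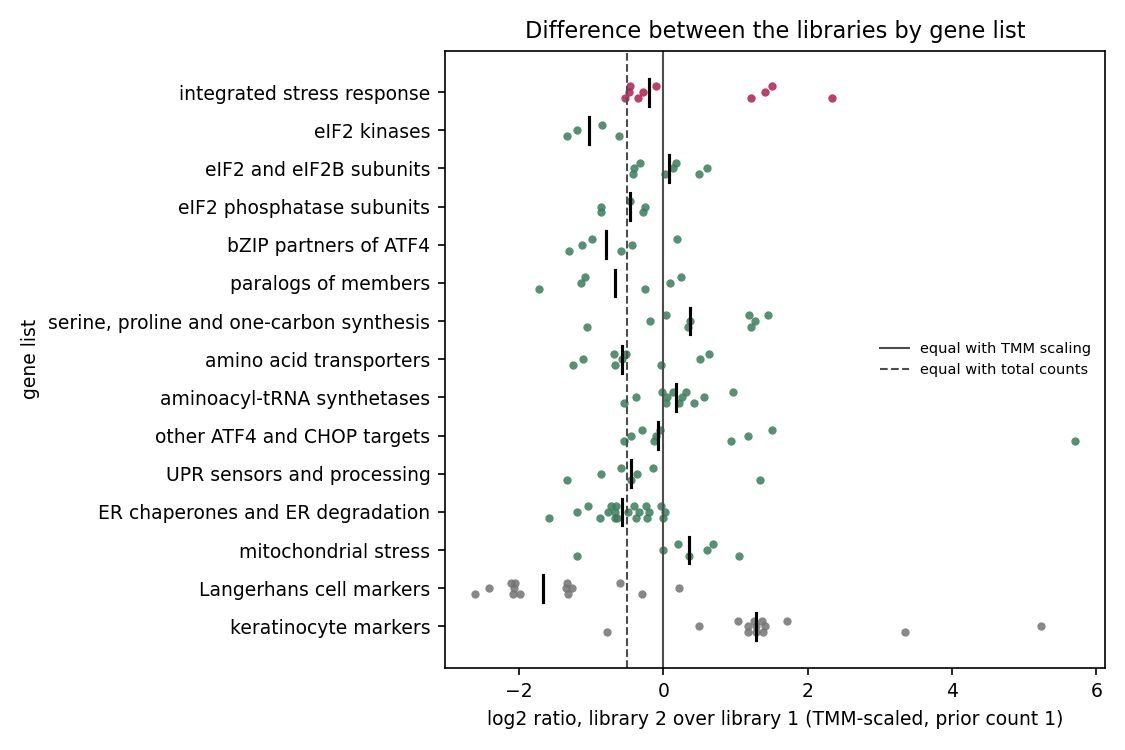
TMM-scaled log2 ratio of library 2 over library 1 for each gene (point) of the integrated stress response, of 12 related lists and of 2 marker lists, with the list median as a black bar. The solid line marks equality with TMM and the dashed line equality with total counts. The 10 genes split into 4 points above 1 and 6 points near or below 0.

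The unfolded protein response, in which Xbp1 acts, was represented by abundant chaperone transcripts. Hspa5, which encodes the chaperone BiP, was at 1049.7 and 1126 CPM, Hsp90b1 at 583 and 524 CPM, and Calr, calreticulin, at 487 and 592 CPM. Hspa5 exceeded Xbp1 per kb 7.37 and 8.10 times. Of 20 chaperone and degradation genes, 19 were above background, and 0 were called higher and 17 lower in library 2 with TMM (44.2% and 36.1% of all genes), but 9 and 9 with total counts (64.6% and 20.5% of all genes). Their summed level was 4012 and 3995 CPM. Edem1, which directs misfolded glycoproteins to degradation, was the lowest of the list at a TMM log2 ratio of -1.58 (178 and 84.4 CPM), and Manf was at 52.7 and 75.9 CPM. Among sensors and processing genes, Atf6 was at 149 and 83.9 CPM, Atf6b at 29.9 and 30.9 CPM, and Rtcb, whose product joins the Xbp1 ends after IRE1 cuts them, at 69.4 and 54.2 CPM. Ern2, an IRE1 gene of mucous epithelia, was within background.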

How the data were processed

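RNA was sequenced from 2 libraries of sorted Langerhans cells, made with a stranded kit for low input (10 to 70 ng), per the labels' protocols. The authors deposited raw counts per Ensembl gene. Trimmomatic, StringTie, HISAT2, SAMtools and the build GRCm38 appear, without versions, in the submitters' processing notes. The annotation release, use of strand, and whether reads or pairs were counted were not given in the sources used here. If pairs were counted as 2 reads, the intervals are too narrow. A blank row and a row of totals, without identifiers, were left out. The column whose name carries the number 2 is library 2.

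Symbols and exon unions came from GENCODE M21 for 55227 of 55487 rows, and rows sharing a symbol were summed. TMM scaling, exact tests and log2 ratios (prior count of 1) used edgeR 4.0.16 in R 4.3.3, after a filter of 1 CPM in at least 1 library. The binomial test used effective library sizes, with edgeR's chi-square approximation for large counts. The test script was tested on simulated data. DESeq2 1.42.0 gave alternative size factors. With a single library on each side, a quasi-likelihood test could not be fitted. Genes and lists were chosen with earlier results of these data known. In each list, the 3 highest levels per kb above background, the highest and lowest ratios (mean level 1 CPM or more), and genes at 0 counts were named. Intervals cover counting error only. Protein sequences were not used here.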

Additional observations from a re-analysis of the deposited data

How the results depend on the processing

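The number of genes called between the libraries was 24358 with TMM 10189 at an assumed dispersion of 0.04 and 17 at the dispersion of 0.406 estimated from the libraries themselves, which was added after the data were seen. Of the 10 stress response genes 9, 4 and 0 were called. With total counts 8 of the 10 were called (85.1% of all genes), all of them higher in library 2, with DESeq2 size factors 10 (79.8%) and without a filter 9 (67.6%). With total counts the log2 ratios of 5 genes turned positive: Atf4 0.22, Atf5 0.40, Ddit3 0.15, Sesn2 0.020 and Ppp1r15a 0.043. This follows from the shift of 0.50 between the scales. Trib3, Asns, Psat1 and Chac1 were called higher under each of these settings but the estimated dispersion, with Trib3 ranging from 2.23 to 2.83 and Chac1 from 1.11 to 1.71. The share of called genes that were higher in library 2 was 55.1% with TMM, 75.9% with total counts and 50.6% with DESeq2 size factors.

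Above background were 9 of the 10 genes with the 99th percentile or without exon length (Trib3 was lost), 10 against vomeronasal receptor genes, and 10 in each library alone. The share of all protein-coding genes that pass is given only for the main rule (47.3%). The median member level of 34.1 CPM was 23.3 and 49.6 CPM in the single libraries. No paired analysis was possible because there is a single group. With 2 libraries, leaving either out ends any comparison, and the estimated dispersion rests on these 2 alone. Under a fixed limit of 3 counts, a count of 0 allows up to 0.0429 CPM in library 1 and 0.0710 CPM in library 2. The exact 95% Poisson interval reaches higher, to 0.0528 CPM in library 1.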

Other observations

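Genes of mitochondrial proteostasis, a further source of the integrated stress response, were all above background (7 of 7). Hspe1 and Hspd1, which encode the paired chaperonins of the mitochondrial matrix and share a locus, were at 69.7 and 149.5 CPM and at 85.1 and 194 CPM in library 1 and library 2. The protease genes Lonp1 (55.8 and 101 CPM) and Clpp (4.96 and 14.5 CPM) were also higher in library 2, and Oma1, the protease that activates the signal to eIF2, was lower (10.98 and 6.77 CPM). Of the 7 genes, 5 were called higher and 1 lower by edgeR's exact binomial test with TMM, beside 44.2% and 36.1% of all genes, and 6 and 1 with total counts, beside 64.6% and 20.5%.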
